A study of Rattus norvegicus with 3 samples.

Results

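The enzymes of glycolysis that a proteomic comparison of Rat1 cells could follow were described here, from the phosphofructokinase step down to lactate. They were found by 9 short entry names in the deposited tables, each with any species ending: K6PF, ALFA, G3P, G3PT, PMG1, ENOA, KPY1, LDHM and LDHH. These names matched 12 of the 1052 protein entries in the series, 11 in the soluble, 1 in the chromatin-enriched and 3 in the crude mitochondrial fraction, and each of them had a protein ratio. The enzyme and gene names given for them are a reading of the entry names, since the tables do not spell them out.

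The cells were Rat1 fibroblasts, an established rat line, with Myc (Rat1_Myc) or with a vector in its place (Rat1_vector). Both lines had been kept for 12 h without serum. How Myc was driven in these cells, and whether the line was a single clone, is not given in the sources used here. Protein of each fraction was tagged on cysteine with an isotope-coded affinity tag (ICAT), heavy for Myc and light for vector, so every value is an abundance ratio of Myc over vector and rests on peptides with cysteine. Each of the 3 fractions was 1 mixture, with 2.5 mg of protein per label for the soluble and chromatin fractions and 250 ug for the mitochondrial one. No label swap and no second mixture are among the samples analysed here, so no p-value can be given, a difference between reagents cannot be told apart from one between cells, and each ± is the deposited SD within 1 mixture.

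Glycolysis splits glucose into pyruvate in the cytosol and yields ATP and NADH, and lactate dehydrogenase then turns pyruvate into lactate and restores NAD+. Myc is a transcription factor that drives growth and, with its partner Max, binds the short DNA word known as the E-box. Genes of glycolytic enzymes, that of lactate dehydrogenase A among them, are textbook targets of Myc, and cells with high Myc that lack serum are prone to apoptosis.

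The tables held 3608 peptide lines for the soluble, 2386 for the chromatin-enriched and 789 for the mitochondrial fraction, a line being 1 identified spectrum. Glycolytic enzymes made up 256 soluble lines, or 7.10% (exact Clopper-Pearson 95% interval 6.28 to 7.98%, for counting error only). They had 1 line in the chromatin table (0.0419%, interval 0.0011 to 0.233%) and 7 in the mitochondrial table (0.887%, interval 0.357 to 1.82%). The intervals take lines as independent, which repeated spectra of 1 peptide are not. Pyruvate kinase alone had 152 of the soluble lines, 75 of them from 1 peptide, so the soluble interval is too narrow. The fractions overlapped, since the mitochondrial chaperonin and malate dehydrogenase were also identified in the soluble table, while 7 of 9 listed nuclear markers were in the chromatin table against 1 in each other table. Fibroblast markers were present in each table, and 0 of 6 keratins and no albumin entry were found. Of 8 fibroblast markers listed, 3 were in the soluble table and 5 in each of the others.

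In the soluble fraction most glycolytic enzymes were more abundant in Myc cells. An entry was counted as higher when its ratio was at least 1.5 and lay more than 2 deposited errors above 1 on the log scale, the error being SD over ratio, and as lower in the mirrored case. Of the 11 soluble glycolytic entries 9 were counted as higher and 0 as lower, against 30.6% of all 542 quantified soluble entries counted as higher and 8.12% as lower. Their median ratio was 2.19 (log2 1.13), beside 1.34 (log2 0.43) for all soluble entries. The entries counted as higher were both of aldolase A, both of testis glyceraldehyde-3-phosphate dehydrogenase, phosphoglycerate mutase 1, alpha enolase, pyruvate kinase and both lactate dehydrogenases. The entries not counted were K6PF_HUMAN, muscle phosphofructokinase, and G3P_MOUSE, glyceraldehyde-3-phosphate dehydrogenase under the name of its common form, which shares peptide sequence with a testis entry that was counted. Divided by the soluble median ratio, 5 of the 11 were counted as higher, against 12.9% of all entries, and 1 as lower, against 17% of all entries. Other proteins of the soluble table also lay above 1, with the 3 cytosolic markers (elongation factor EF2 and both HSP90 forms) at 1.51 to 2.71 and the mitochondrial CH60 and MDHM entries at 2.37 to 2.60, while fibroblast markers lay at 0.622 to 0.870. The part of such general shifts between the lysates in the glycolytic ratios was not tested. By the fold alone, 41% of all soluble entries would be counted as higher. With the median of an entry's single peptide values as its ratio, 4 of the 11 were counted as higher, against 24.7% of all soluble entries. The error was the spread of those values, or the deposited SD for an entry with 1 value, such as G3P_MOUSE. Every entry counted as higher by its protein ratio kept a median past the fold, from 1.56 (G3PT_HUMAN) to 4.04 (ALFA_MOUSE). The lower count thus came from this error, which does not shrink as values are added. Across the 3 fractions 482 entries had 1 unmarked value, so the count and the share do not rest on the same kind of error throughout.

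**Figure D1:**
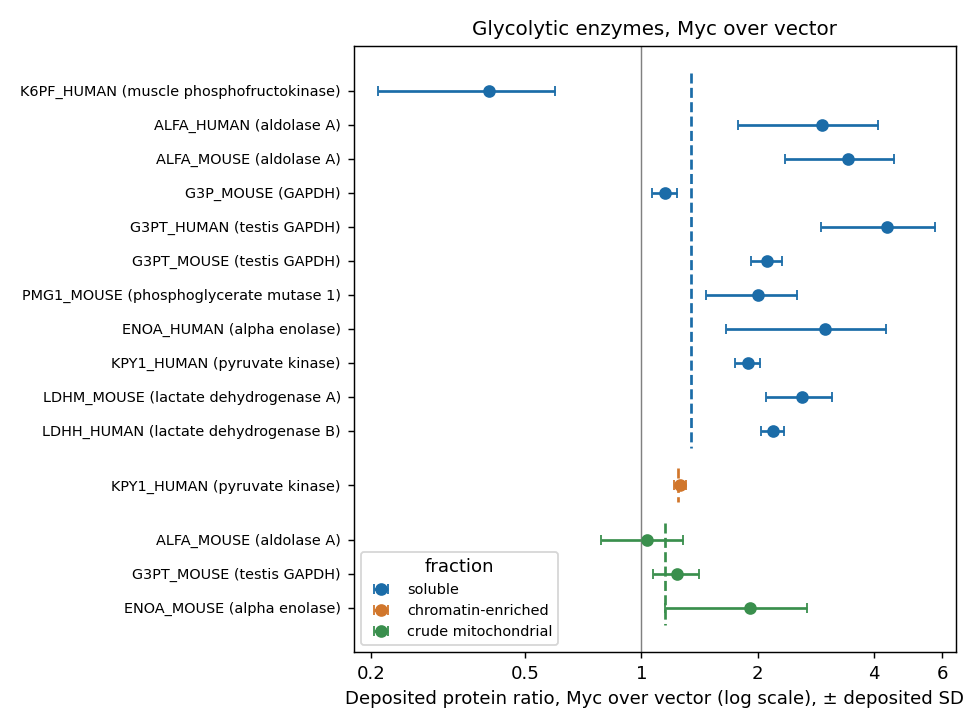
Deposited protein ratio of Myc over vector (log scale) for every glycolytic entry, with the deposited SD as bar, coloured by fraction, and a dashed line at the median ratio of all entries of that fraction (1.34, 1.24 and 1.15). In the soluble fraction 9 of 11 points lie right of the dashed line, with phosphofructokinase at 0.403 far to the left, while the chromatin and mitochondrial points lie between 1.03 and 1.91.

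**Figure D2:**
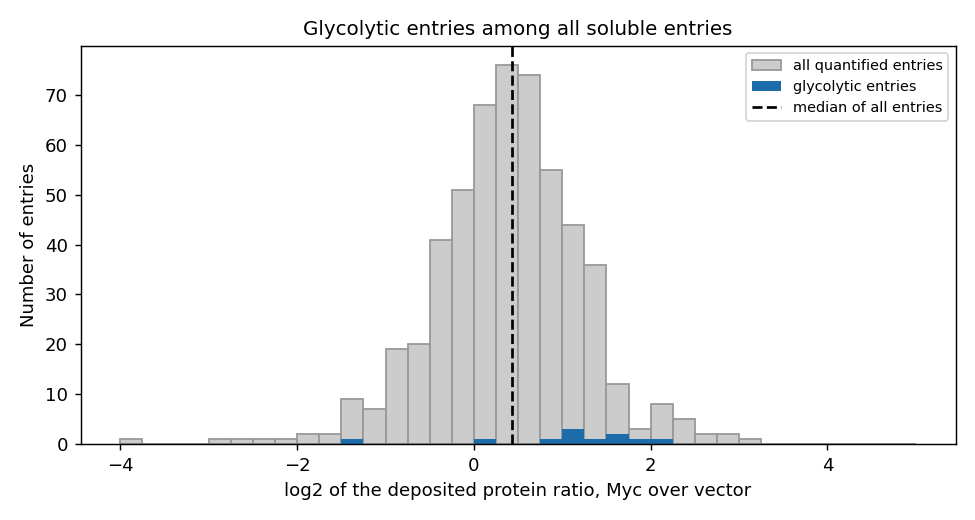
Number of soluble entries by log2 of the deposited protein ratio, for all 542 quantified entries (grey) and for the 11 glycolytic entries (blue), with a dashed line at the median of all entries (0.43). Most blue bars lie right of the dashed line, and the highest glycolytic entry was the 15th highest of the 542.

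Most single peptide values also lay above 1. Fewer entries were counted as higher by their medians because of the error used, not because those medians fell below the fold. After lines with the same ratio and SD for a peptide were taken once, and lines that the table marks with a question mark were left out, 149 soluble peptide measurements stood behind the 11 entries. Of these, 142 lay above 1 and 7 below, and 83.9% were at least 1.5, beside 48.5% of the 2379 measurements of all soluble entries. The 25 glycolytic soluble lines left out for the question mark held values on both sides of 1, from 0.104 to 9.27. Pyruvate kinase alone gave 75 of the 149, and without it 81.1% of the other 74 were at least 1.5. Peptides of 1 protein share their source, so these counts describe the one mixture and are not replicates. Near repeats, such as 4.135 ± 0.227 and 4.135 ± 0.228 for pyruvate kinase, were kept as separate measurements. The counts may therefore hold the same measurement more than once. Of the 256 soluble glycolytic lines, 44 carried a code in place of a ratio and were treated as not measured. The spectra also differed in label, with 157 heavy (Myc) and 99 light (vector) identifications, or 61.3% heavy, beside 57.6% heavy over all soluble lines.

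**Figure D3:**
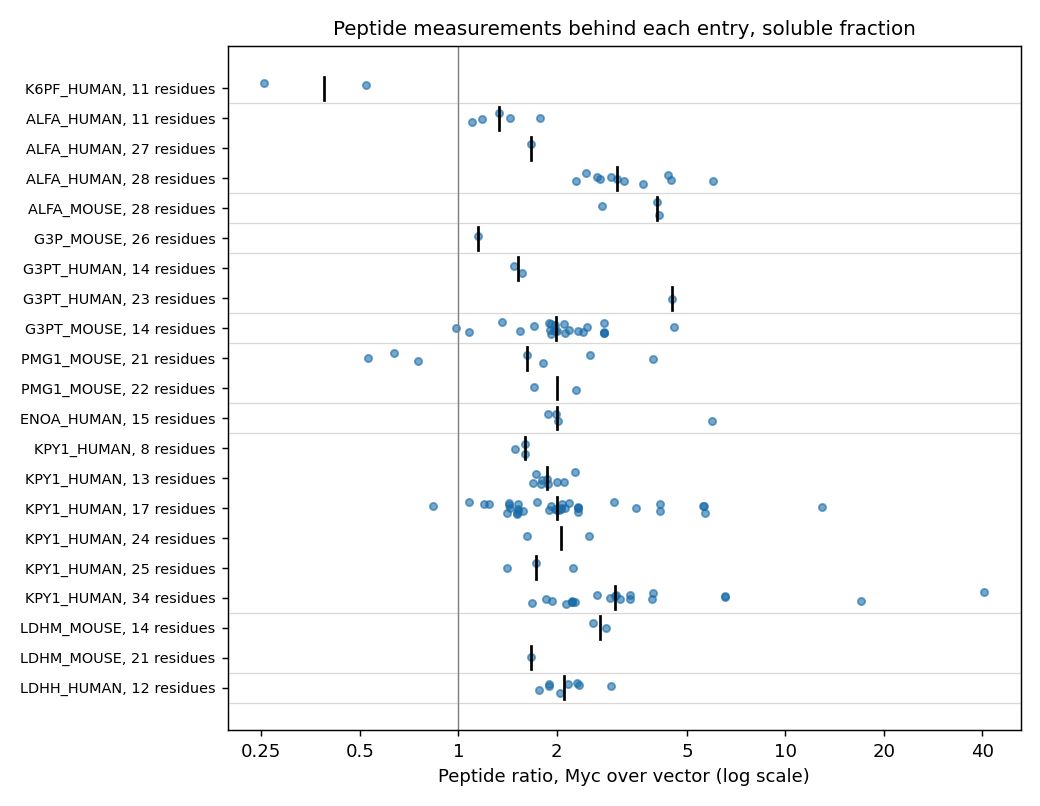
Each unmarked soluble peptide measurement of Myc over vector (log scale) as a point, grouped by entry and by peptide length, with a black bar at the peptide's median. The 11-residue aldolase peptide (1.10 to 1.78) lies clear of the 28-residue one (2.30 to 6.01), and single pyruvate kinase points reach 40.6.

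Muscle phosphofructokinase, which phosphorylates fructose 6-phosphate at the committed step of glycolysis, had the lowest ratio of the group, 0.403 ± 0.195 (K6PF_HUMAN), ranking 526 of 542. Its single 11-residue peptide gave 0.255 ± 0.196 and 0.521 ± 0.077, both below 1. The ratio lay 1.88 errors below 1, short of the 2 asked for, and the entry was counted as lower after division by the soluble median. The liver form of the same enzyme, an entry outside the 9 names, stood at 0.922 ± 0.119 on 1 peptide (K6PL_MOUSE). No phosphofructokinase entry was therefore above 1.

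Aldolase A, which cleaves fructose bisphosphate into a pair of triose phosphates, was among the higher enzymes by both of its soluble entries, at 3.43 ± 1.08 (ALFA_MOUSE) and 2.94 ± 1.16 (ALFA_HUMAN). They rested on different peptides. The mouse entry had 3 measurements of a single 28-residue stretch, of which the form with plain methionine gave 2.76 and the form with oxidised methionine gave 4.04 and 4.10. The human entry mixed peptides whose unmarked values differed. Its own 28-residue peptide gave 11 measurements from 2.30 to 6.01, with a median of 3.06, while the 11-residue peptide gave 5 from 1.10 to 1.78, with a median of 1.33. Among unmarked measurements the ranges of these peptides of 1 protein did not overlap. A 28-residue value with a question mark, 1.417, lay inside the range of the 11-residue peptide. Of the 11-residue values, 1.099 ± 1.316, 1.33 ± 1.774 and 1.435 ± 1.59 had SDs larger than the ratio. The 1 measurement of a 27-residue peptide, at 1.67, also lay inside the range of the 11-residue one. Neither 28-residue peptide was identified in the other fractions.

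Glyceraldehyde-3-phosphate dehydrogenase oxidises the triose phosphate and makes the NADH of the pathway. The entry of its common form stood at 1.15 ± 0.086 (G3P_MOUSE), from 1 measurement of a 26-residue peptide, and a second peptide of that entry carried only a code. The entries of the testis form, in rodents and man an enzyme of sperm, stood at 2.12 ± 0.196 (G3PT_MOUSE) and 4.33 ± 1.42 (G3PT_HUMAN). The only peptide of G3PT_MOUSE, 14 residues long, is contained whole in the 26-residue peptide listed under G3P_MOUSE, so its values cannot be told apart from those of the common form. That 14-residue peptide gave 24 measurements from 0.981 to 4.55 with a median of 1.99, of which 23 lay above 1 and 21 were at least 1.5. The 14-residue peptide of G3PT_HUMAN differed from it by a single residue, D5N counted from the first residue and read from the human to the mouse entry, with the mouse form 0.984 Da lighter. It gave 1.48 ± 0.126 and 1.56 ± 0.094, below the median of the mouse form. The protein ratio of 4.33 followed a 23-residue peptide measured once, at 4.49 ± 0.104 with an identification probability of 0.835, and the median of the 3 measurements of the entry was 1.56. On the log scale, the inverse-variance mean of the 3 dehydrogenase entries was 1.51 ± 0.0867, just past the fold asked for. Its ± comes from the deposited SDs and does not measure the gap between entries, which ran from 1.15 to 4.33.

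Phosphoglycerate mutase 1, which moves the phosphate group within phosphoglycerate, stood at 2.00 ± 0.532 (PMG1_MOUSE). Its 21-residue peptide gave 7 measurements from 0.528 to 3.95, with 3 of them below 1 and a median of 1.62. The same stretch with 1 more residue gave 1.71 and 2.29. Among unmarked measurements, it was the only enzyme counted as higher with several below 1. Pyruvate kinase and G3PT_MOUSE had 1 such value each. Measurements with a question mark also fell below 1 for ALFA_HUMAN, KPY1_HUMAN and G3PT_MOUSE.

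Alpha enolase, which makes phosphoenolpyruvate, stood at 2.98 ± 1.32 (ENOA_HUMAN). Its single 15-residue peptide gave 1.88, 1.99 and 2.02 close together and 1 further value of 5.95 ± 2.02, so the median of the measurements was 2.01. An entry of beta enolase, the muscle form, which is outside the 9 names, stood at 3.34 ± 1.53 (ENOB_HUMAN), with 4 measurements from 1.28 to 6.51. The peptides of these 2 entries differed by L11I only, leucine against isoleucine, which have the same mass (difference 0.000 Da). The mass alone therefore does not separate alpha from beta enolase in these tables, and they are not independent evidence of each other.

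Pyruvate kinase, which makes pyruvate and ATP in the last step of glycolysis, had the most peptide lines of any soluble entry, 152, against 83 for the next. Its protein ratio was 1.89 ± 0.137 (KPY1_HUMAN), and 6 peptides gave 75 measurements with a median of 2.06, of which 74 lay above 1. The 13-residue peptide gave 9 measurements between 1.69 and 2.27, with a median of 1.87. The 17-residue peptide spread from 0.838 to 12.9 over 37 measurements with a median of 2.00, and the 34-residue peptide from 1.68 to 40.6 over 21 with a median of 3.02. The 8-residue peptide gave 3 measurements between 1.49 and 1.60. All peptide medians thus lay between 1.60 and 3.02, above the soluble median of 1.34. The 24-residue and 25-residue peptides among the 6 lie within the 34-residue one, so these are not 6 separate stretches. The name KPY1 stands for the M1 splice form, but the 13-residue and 34-residue peptides were listed under KPY2, the M2 form that growing cells mostly use, in the mitochondrial table. They do not separate the splice forms.

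The lactate dehydrogenases, which join as tetramers of A and B chains, were both higher. The A chain, dominant where lactate is made, stood at 2.61 ± 0.505 (LDHM_MOUSE), with 2.58 and 2.84 from a 14-residue peptide and 1.67 from a 21-residue peptide identified with a probability of only 0.715. The B chain, dominant in heart, stood at 2.19 ± 0.148 (LDHH_HUMAN) from 8 measurements of 1 peptide, all between 1.76 and 2.92 with a median of 2.10. Both remained counted as higher after division by the soluble median, as did ALFA_MOUSE and both G3PT entries. By the median of single measurements, the entries counted as higher were LDHM_MOUSE, LDHH_HUMAN, ALFA_MOUSE and G3PT_MOUSE.

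Since most of these proteins moved the same way in cells that carry Myc, the promoters of their genes were read for the canonical E-box, CACGTG, which is its own reverse complement, so that 1 search covers both strands. RefSeq windows from 250 bases before to 50 after a start site (rat build GRCr8) were found for all 9 genes, 12 windows in all, and 1 of the 12 held the word, beside 6.42% of all 33469 windows. By gene, 1 of 9 held it, beside 7.08% of all genes. It was in the window of Ldha, the gene of the A chain, at chr1:106507842-106508141 on the plus strand, at position -87 from the start site. The window is shown because it is the only one with the word, which is in capitals.
Ldha: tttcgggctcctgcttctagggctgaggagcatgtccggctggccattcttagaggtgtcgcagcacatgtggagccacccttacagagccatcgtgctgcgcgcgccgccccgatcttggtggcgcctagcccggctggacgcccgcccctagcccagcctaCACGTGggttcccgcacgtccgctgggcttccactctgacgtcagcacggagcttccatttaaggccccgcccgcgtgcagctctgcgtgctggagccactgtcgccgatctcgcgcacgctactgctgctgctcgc
No match in the other windows says only that these letters are not in them, and binding was not measured. Pfkm, the gene of the low phosphofructokinase, and Pkm, Aldoa, Eno1, Gapdh, Gapdhs, Pgam1 and Ldhb had no match.

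From a list of 19 other glycolytic entry names, the rest of the pathway was represented by 4 names in the soluble table, at a median of 2.26. Of these 4 entries 1 was counted as higher (ENOB_HUMAN) and 0 as lower, beside 30.6% and 8.12% of all soluble entries. The entry counted is the beta enolase whose peptide has the same mass as that of alpha enolase. Glucose-6-phosphate isomerase, the second enzyme of the pathway, stood at 1.81 ± 0.725 (G6PI_HUMAN), with 9 measurements of 1 peptide from 0.462 to 3.15. Triose phosphate isomerase, which interconverts the triose phosphates, stood at 2.70 ± 2.57 (TPIS_HUMAN). Its peptides opposed each other, the 10-residue one at 2.39 to 3.91 and the 13-residue one at 0.427 and 0.436. Hexokinases and phosphoglycerate kinases had 0 entries. Of 23 names on side branches, transport and shuttles, 3 were in the soluble table. Of these, 0 were counted as higher or lower, beside the same 30.6% and 8.12%. Transaldolase of the pentose phosphate path stood at 1.48 ± 0.222 (TAL1_HUMAN) and muscle glycogen phosphorylase at 1.21 ± 0.172 (PHS2_HUMAN). Phosphoglycerate dehydrogenase, which draws 3-phosphoglycerate into serine synthesis, stood at 1.52 ± 0.493 (SERA_HUMAN). In the other fractions it was the only name of the side list, at 2.76 ± 3.96 in the chromatin (SERA_HUMAN) and 3.00 ± 0.365 in the mitochondrial fraction (SERA_MOUSE). The mitochondrial entry was counted as higher, a call that 10.9% of all mitochondrial entries received.

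Outside the soluble fraction the glycolytic enzymes were few and closer to 1. In the chromatin-enriched fraction pyruvate kinase was the only one, at 1.26 ± 0.046 from 1 measurement (KPY1_HUMAN), near the median of all chromatin entries of 1.24. It was counted neither as higher nor as lower, calls that 20.3% and 7.42% of the 364 chromatin entries received. Division by the chromatin median (9.34% of all entries higher) and the fold alone (28.6% higher, 9.62% lower) did not call it either. In the mitochondrial fraction aldolase A stood at 1.03 ± 0.249 (ALFA_MOUSE), the testis dehydrogenase entry at 1.24 ± 0.171 (G3PT_MOUSE) and alpha enolase at 1.91 ± 0.764 (ENOA_MOUSE), each on 1 peptide. Of these, 0 of 3 were counted as higher, and 0 as lower, beside 10.9% and 7.46% of the 201 mitochondrial entries. After division by the mitochondrial median 0 were counted as higher, beside 6.97%, and by the fold alone 1 was, ENOA_MOUSE, beside 21.4%. For the 3 entries the median of 1.24 lay close to the 1.15 of all entries. The other glycolytic entries there were also not counted, M2 pyruvate kinase at 1.40 ± 0.381 (KPY2_MOUSE), triose phosphate isomerase at 1.66 ± 0.643 (TPIS_MOUSE) and beta enolase at 1.85 ± 0.683 (ENOB_MOUSE).

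Between fractions, a difference was called from a gap of 1.5-fold or wider that also exceeded 2 combined errors. Of 4 pairs of the same enzyme, 2 did so, both with the soluble ratio above the mitochondrial one. For comparison, 18.2% of the 55 entries shared by these tables differed, all with the soluble ratio above, and 21.1% of the 95 shared by the soluble and chromatin tables. Aldolase A (ALFA_MOUSE) was 3.32-fold apart (3.03 combined errors), and G3PT_MOUSE was 1.71-fold apart (3.21 combined errors). For pyruvate kinase the soluble ratio was 1.497-fold the chromatin one (4.96 combined errors), just short of the fold, and alpha enolase was 1.56-fold apart at only 0.744 combined errors. With each ratio divided by its fraction's median, only aldolase A still differed (2.85-fold, 2.65 combined errors), and G3PT_MOUSE was 1.46-fold apart.

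The aldolase difference came with a change of peptide, since the soluble ALFA_MOUSE ratio rests on the 28-residue peptide and the mitochondrial one on the 11-residue peptide. The same 11-residue peptide had a soluble median of 1.33 (5 measurements, 1.10 to 1.78), against a single mitochondrial value of 1.03 ± 0.250. For peptides of the same residues the fractions could be set side by side without that change. Plain and oxidised methionine were not kept apart in this. The 14-residue dehydrogenase peptide had a soluble median of 1.99 over 24 measurements, against 1.17 and 1.37 in the mitochondrial fraction, which lie inside the soluble range. The 13-residue pyruvate kinase peptide lay between 1.69 and 2.27 in all 9 soluble measurements, against a single mitochondrial value of 1.03 ± 0.649. The 34-residue one had medians of 3.02 over 21 soluble measurements, 1.26 in 1 chromatin measurement and 1.32 over 9 mitochondrial ones (0.744 to 2.84). Its unmarked soluble values were all of the plain methionine form, since every oxidised one carried a question mark. The mitochondrial values held both forms, with the plain form at 1.125 to 2.841, so these medians compare unlike forms. With marked values kept, the soluble median of this peptide was 2.23. The enolase peptide had a soluble median of 2.01 and a mitochondrial value of 1.91. Of these 6 pairs of medians, in which the soluble median of the 34-residue peptide stands in 2, 4 were at least 1.5-fold apart, all higher in the soluble fraction. Such gaps were common, since 53% of all 164 peptides measured in the soluble and mitochondrial fractions had medians that far apart (42.1% higher in the soluble one), and 49% of the 98 in the soluble and chromatin fractions (27.6% higher in the soluble one). The 6 glycolytic pairs overlap and are too few to tell their count apart from these shares, so neither likeness nor difference is read from it.

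**Figure D4:**
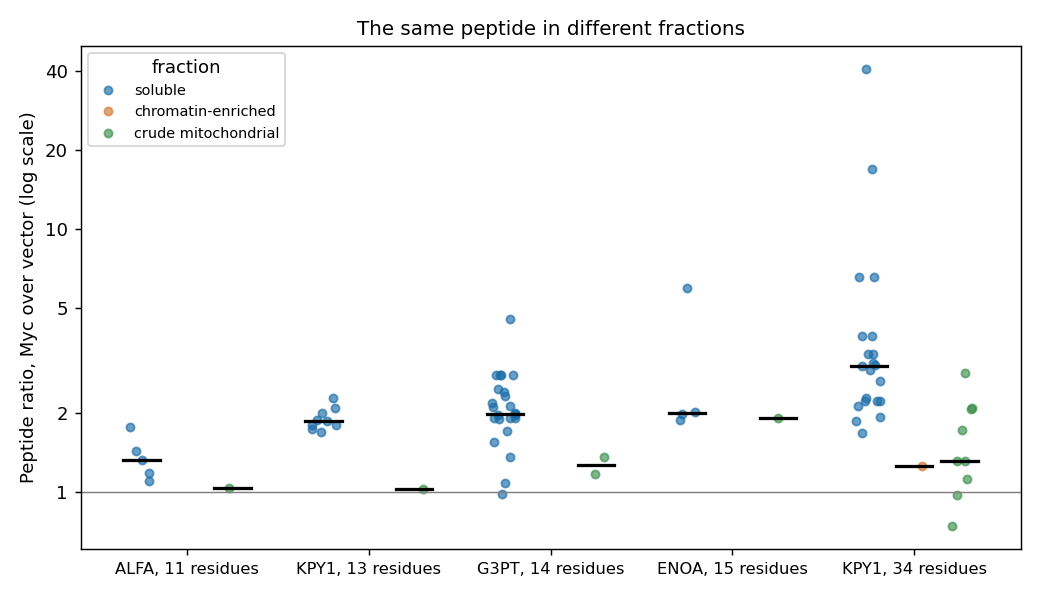
Unmarked measurements of Myc over vector (log scale) for the 5 peptides of the 9 named enzymes found in more than 1 fraction, coloured by fraction, with a black bar at each median; the mitochondrial pyruvate kinase points are listed under KPY2_MOUSE. Soluble medians (1.33, 1.87, 1.99, 2.01 and 3.02) lie above the mitochondrial ones for these 5 peptides, by little for enolase. For the 34-residue peptide the soluble points are of the plain methionine form and the mitochondrial points of both plain and oxidised forms.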

How the data were processed

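Peptide and protein ratios of Myc over vector were calculated by the authors with ASAPRatio, per the labels, after a search of the spectra in NCBI's protein database of rat, mouse and man and scoring with PeptideProphet and ProteinProphet. Versions, and whether ratios were centred, are not given in the sources used here. Per the legend deposited with the tables, peptides have a probability of 0.5 or more (lowest here 0.502), and 3 ratio codes mean that acceptable peaks were not detected for one or both labelled forms. Coded lines were left out. A question mark in 1058 of 6783 lines is not explained by the legend, and those lines were left out of peptide medians. Protein ratio, SD and peptide number share 1 deposited text cell, which was split.

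The members and lists were chosen with earlier results of these data known. Every member entry is named, as is every quantified soluble and mitochondrial entry of the glycolytic list. Measurements of 1 peptide with the same ratio and SD were taken once. Peptides were compared by letters, and masses computed with pyteomics 5.0.1. Promoter windows are from RefSeq (GRCr8), matched by gene symbol read from the entry name. Protein sequences were not used here. Alternatives changed the fold (1.3, 2), the errors (1, 3, none), centring, peptide number, probability (0.9), peptide medians and merging of entries. The software was matplotlib 3.10.9, scipy 1.17.1, pandas 2.3.3 and numpy 2.4.6 in Python 3.11.15.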

Additional observations from a re-analysis of the deposited data

How the results depend on the processing

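The soluble count of 9 glycolytic entries counted as higher was 9 of 11 with a fold of 1.3 (38% of all soluble entries), 1 error (38.4%), the fold alone (41%) or a probability of 0.9 (30.5%), 8 of 11 with a fold of 2 (16.4%), 6 of 11 with 3 errors (24.5%), 6 of 6 with at least 2 peptides (33.3%) and 7 of 9 with entries merged by enzyme. It was 5 of 11 after division by the soluble median (12.9%) and 4 of 11 (24.7%) with medians of peptide measurements. The error of these medians by construction is the spread of single measurements, or the deposited SD where an entry had only 1. With entries merged by enzyme, and G3P and G3PT also merged to 1 enzyme, the count was 7 of 8. Without the aldolase entries it was 7 of 9 (main rule, 30.6% of all soluble entries). Both alternatives were added after the data were seen. For merged entries no share over all entries was worked out. The chromatin count stayed 0 in every alternative run. The mitochondrial count of 0 became 1 (ENOA_MOUSE) with 1 deposited error or with the fold alone. The fold alone called 21.4% of all mitochondrial entries higher, and no such share was worked out for 1 error. Among 4 pairs, the count of 2 that differed between fractions became 3 with a fold of 1.3, 1 with a fold of 2 and 1 after division by the medians, and 4 of 6 with identical peptides, an alternative added after the data were seen, which has no error rule. For these differences, a share over all entries or peptides was worked out only for the main rule and for identical peptides. For single entries, division by the median moved 8 of 15 log2 ratios by more than 1 deposited SD, and no called entry changed sign. A limit of at least 2 peptides left no chromatin or mitochondrial entry and was not run there. The limit used the deposited peptide number, which gave 2 for ALFA_MOUSE in the soluble fraction on a single 28-residue stretch. No paired analysis was possible because each fraction was 1 mixture. The mitochondrial table, with 7 glycolytic lines, limits what can be said of that fraction. Where a value moved, the cause was not tested beyond this.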

Other observations

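Marked measurements, which the authors' table sets apart with a question mark, lay low for aldolase A in the soluble fraction. The 11-residue peptide had 3 of them, at 0.104, 0.213 and 0.666, against 5 unmarked ones from 1.10 to 1.78, and the same stretch with 1 more residue had only a marked value of 0.241. The 28-residue peptides of ALFA_HUMAN and ALFA_MOUSE had 1 marked value each, at 1.417 and 1.763, below their unmarked ones. For the 34-residue pyruvate kinase peptide 11 marked measurements lay between 0.154 and 2.73, and with them its median was 2.23, against 3.02 without. Marked values did not all lie low, since the 3 of the 17-residue pyruvate kinase peptide were 0.543, 0.612 and 9.27, around an unmarked median of 2.00. For the 14-residue dehydrogenase peptide the 1 marked value was 0.436. The median of an entry with marked values kept moved by more than 1 deposited SD in 1 of 15 glycolytic entries, G3PT_HUMAN, which has no marked measurement and differs from its protein ratio only through the use of a median.

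The 13-residue peptide of triose phosphate isomerase, at 0.427 and 0.436 in the soluble fraction, was also measured in the mitochondrial fraction, at 1.05 to 2.09 over 3 measurements (TPIS_MOUSE). It was the only glycolytic peptide seen in both fractions with a soluble median below the mitochondrial one.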
